A study of Mus musculus with 12 samples.

Results

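The S100 calcium-binding proteins were followed through 10 member genes: S100a1, S100a6, S100a8, S100a9, S100a10, S100a11, S100a13, S100a14, S100a16 and S100b. They were chosen by name, with earlier results of these data known. Each had 1 row of its own in every expression file, 10 of the 23301 gene names shared by all 12 samples. RNA was measured in mammary tissue of female mice aged 12 weeks, in 4 groups of 3 samples. Normal was the mammary gland of FVB wild type mice with no treatment, and each Normal sample pooled abdominal and inguinal glands of 3 mice. Tumor was untreated mammary tumor of MMTV-PyVT mice, in which the mouse mammary tumor virus promoter drives the polyoma virus middle T antigen in mammary epithelium, and each Tumor sample was the thoracic gland tumor of 1 mouse. DMSO and C646 were tumors of MMTV-PyVT mice injected with the solvent DMSO or with C646, an inhibitor of the histone acetyltransferase p300. The labels give both injections the same 1 mg/kg. Tissue, gland position and pooling changed together between Normal and Tumor and cannot be told apart.

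S100 proteins are small calcium sensors with a pair of EF-hand motifs that work mostly as dimers. Calcium opens a surface that binds a target protein, often an annexin or a cytoskeletal protein, and some members are also released from cells and act on the receptors TLR4 and RAGE. In mammary tissue they are known from epithelium, adipocytes, nerve sheath and infiltrating myeloid cells, and several are read as markers of inflammation or invasion in breast tumors. Most mouse S100 genes sit in 1 cluster. In GENCODE annotation of GRCm38, S100a1, S100a13, S100a14, S100a16, S100a6, S100a8 and S100a9 followed each other on chromosome 3 between 90511034 and 90695721, S100a11 and S100a10 lay 2824766 bp further on, and S100b was on chromosome 10 between 76253853 and 76261159. The starts of S100a1 and S100a13 faced each other across 42 bp. The libraries did not keep strand, and S100b overlapped Dip2a, on the opposite strand, by 1731 bp; Dip2a itself stood between 5.77 and 8.33 FPKM in the 12 samples. FPKM are fragments per kilobase of gene, scaled to library size, and can be compared between genes. No other member overlapped an annotated gene.

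The defining markers of mammary tissue were present, and luminal transcripts were higher and stromal ones lower in Tumor. Of 8 luminal epithelial markers 7 were higher in Tumor and none lower. All 8 adipocyte, all 8 lymphocyte and all 7 endothelial markers were lower, as were 5 of 6 fibroblast, 4 of 8 macrophage and 6 of 7 tested Schwann cell markers, with the Schwann cell gene Sox10 higher. All 8 skeletal muscle markers were higher in Tumor, and of 8 myoepithelial markers 2 were higher and 4 lower. No marker of any list was called between C646 and DMSO, where 0 of all 12083 genes tested were called. The 6 adipocyte markers tested there had a median log2 fold change of 4.32. For 4 of them every C646 tumor was above every DMSO tumor, and for 0 below, where 4.04% and 4.52% of all genes did so. In bulk tissue, fewer cells of a type and less RNA per cell cannot be told apart. The DMSO libraries were the least alike. DMSO replicate 3 correlated with the other DMSO samples across 13232 genes at a mean Pearson's r of 0.911, the lowest of the 12 samples, where the others ranged from 0.922 to 0.972. Its myoepithelial marker sum was 363 FPKM against 39.6 and 55.9 in DMSO replicates 1 and 2. The keratins Krt5 and Krt17, at 229 and 92.2 FPKM, made up most of the 363 FPKM. Of the same list, Acta2 ranged from 9.10 to 21.8 FPKM and Trp63 from 2.67 to 15.4 FPKM in DMSO, both highest in replicate 3. Oxtr, Cnn1 and Myh11 reached at most 3.99, 0.731 and 0.492 FPKM in any DMSO sample. DMSO replicate 1 had the most genes at least 2-fold from both others of its group, 1140 against 1078 for replicate 3. Results that rest on either library are given with and without it.

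In Normal the members spanned levels from 5.08 to 551 FPKM. S100a11, which partners annexin A1, was highest at 551 ± 5.93 FPKM (SD, n = 3). S100a10, the annexin A2 partner that has lost calcium binding, followed at 456 ± 15.5 FPKM (SD, n = 3), below every S100a11 value. S100a6, or calcyclin, at 436.5 FPKM, S100a1, best known from heart and skeletal muscle, at 311 FPKM and S100a13, a partner in the release of FGF1 and interleukin 1 alpha, at 208 FPKM formed a chain in which each overlapped its neighbour. S100a16, an epithelial member, came next at 92.4 ± 16.2 FPKM (SD, n = 3), and S100b, known from Schwann cells and adipocytes, at 15.1 ± 5.998 FPKM (SD, n = 3), each apart from its neighbours. The 3 lowest were S100a9 at 6.29, S100a14 at 5.20 and S100a8 at 5.08 FPKM, and these overlapped. The 10 members together held between 0.34% and 0.37% of all FPKM in Normal and between 0.305% and 0.431% in Tumor.

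In Tumor the order changed mainly through S100a8, which moved from the lowest place to the sixth, at 157 FPKM. S100a11 stayed first at 998 FPKM and S100a6 came second at 560 FPKM. From S100a11 down to S100a13 each gene overlapped its neighbour, and S100a14, S100a9 and S100b were lowest at 12.2, 7.74 and 5.96 FPKM.

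**Figure D1:**
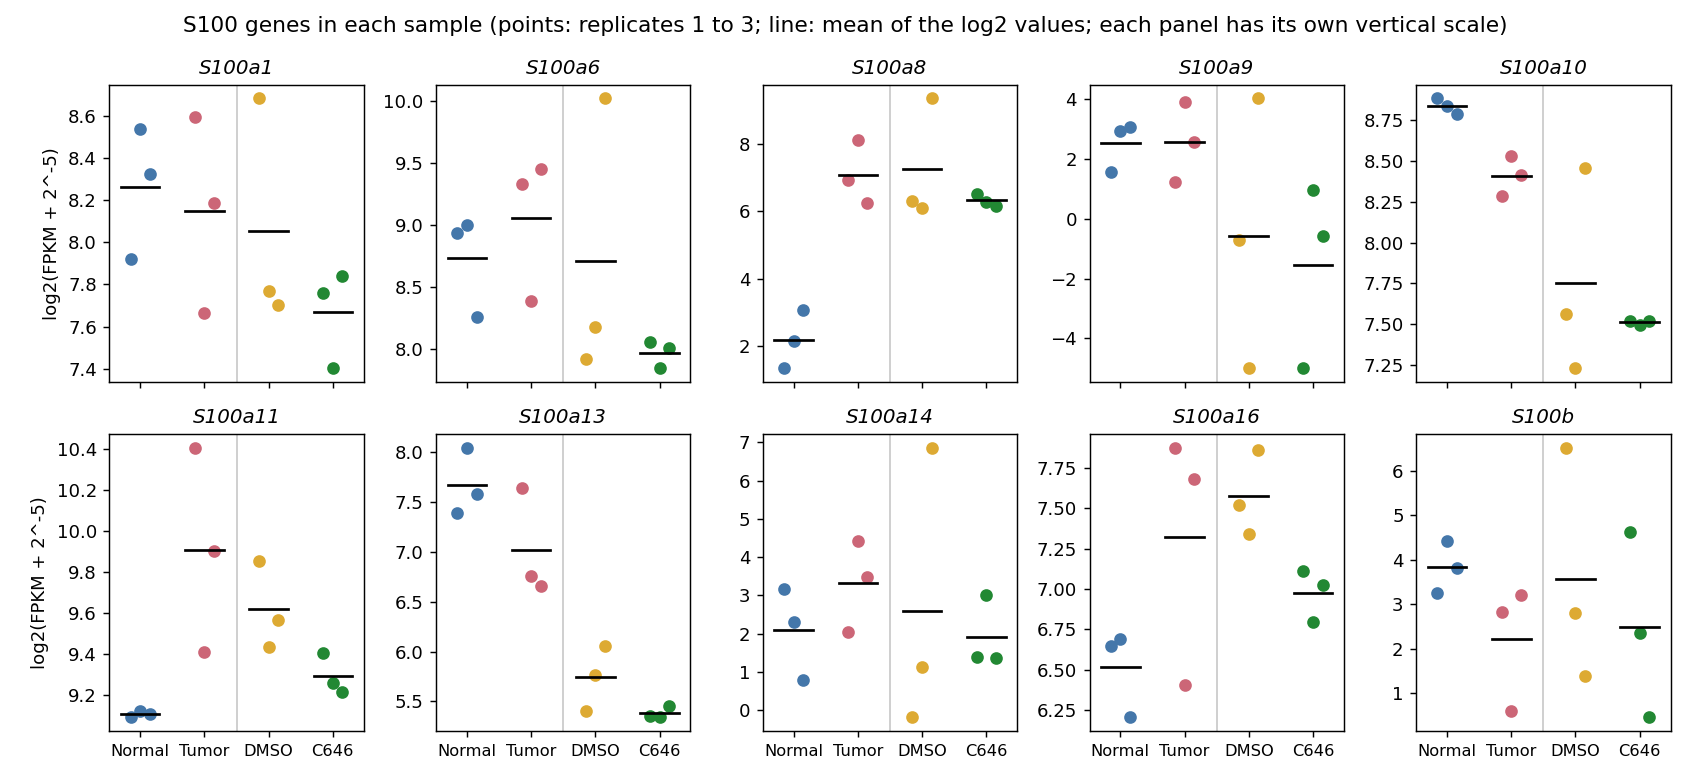
Level of each S100 gene in every sample, as log2(FPKM + 2^-5), in Normal, Tumor, DMSO and C646; points are replicates 1 to 3, lines are means of the log2 values, and each panel has its own vertical scale. S100a8 is higher in the 9 tumors (67.8 to 654 FPKM) than in the 3 Normal samples (2.49 to 8.39 FPKM), and DMSO replicate 3 is the highest of the 12 samples for S100a6, S100a8, S100a9 and S100a14.

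The first comparison asked which S100 genes differed between untreated tumors and normal mammary gland. S100a8 and S100a11 were higher and S100a10 lower in Tumor, and 7 members did not pass the test. It was made with limma on log2(FPKM + 2^-5) over 13031 genes, with Benjamini-Hochberg adjustment at 0.05, while the standard errors (SE) and 95% intervals given are unadjusted. Of all genes tested 60.5% were called, 28.8% higher and 31.7% lower, so 2 higher and 1 lower of 10 members were no more than this background. The median log2 fold change of the 10 members was 0.19, against -0.02 over all genes tested. The groups did not overlap for 2 members that were higher and 2 that were lower in Tumor, where 33.1% and 35.8% of all genes did so, 68.9% together.

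S100a8 and S100a9 encode the subunits of calprotectin, a metal-binding complex that is abundant in neutrophils and that acts on TLR4 and RAGE when released. S100a8 had 2.49, 4.38 and 8.39 FPKM in Normal replicates 1 to 3, and 121, 275 and 76.4 FPKM in Tumor replicates 1 to 3. Every tumor was above every normal sample. The mean rose 31.0-fold, from 5.08 ± 3.01 to 157 ± 104 FPKM (SD, n = 3 each), with a log2 fold change of 4.91 ± 0.56 (SE, 95% interval 3.59 to 6.23, limma adjusted p = 0.000309). The call held in all 16 alternative fits, with log2 fold changes between 4.40 and 5.36.

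S100a9 did not follow its partner. It had 2.89, 7.67 and 8.32 FPKM in Normal and 2.32, 15 and 5.91 FPKM in Tumor, and the groups overlapped. Its log2 fold change was 0.05 (95% interval -1.58 to 1.68, limma adjusted p = 0.952). The ratio of S100a8 to S100a9 was 0.861, 0.571 and 1.01 in Normal replicates 1 to 3 and 52.0, 18.3 and 12.9 in Tumor replicates 1 to 3. In RNA per length, Normal tissue thus held S100a8 at 0.571 to 1.01 times S100a9, and the tumors held S100a8 RNA in excess. These are RNA levels and do not give the amounts of the protein subunits. The difference between both changes was not tested. In the injected tumors S100a8 was at least 67.8 FPKM, while S100a9 was at most 1.89 FPKM in 5 of 6 and 16.2 FPKM in DMSO replicate 3, where the ratio was 40.4. S100a9 was listed at 0 in DMSO replicate 2 and C646 replicate 1, and ratios to values this low are not given.

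Among neutrophil markers, Ltf was higher in Tumor and most others were lower or near 0. The 13 listed genes summed to between 44.8 and 64.8 FPKM in Normal and between 455 and 759 FPKM in Tumor, but 1 gene made up nearly all of the tumor sum. This was Ltf, lactoferrin, a neutrophil granule protein that mammary epithelium also secretes into milk, at 749, 754 and 453 FPKM in Tumor and 24.7, 28.6 and 41.6 FPKM in Normal. The 11 other genes with a row in all 12 files summed to between 20.1 and 24.1 FPKM in Normal and between 1.70 and 4.65 FPKM in Tumor. Of 5 markers tested, Ltf was higher, and Cxcr2, Mmp9 and Il1r2 were lower, with log2 fold changes of -3.93, -4.10 and -5.02 (limma adjusted p = 0.00576, 0.000278 and 0.00679). Retnlg did not pass (limma adjusted p = 0.0848). Elane was listed at 0 in all 9 tumors, and Ly6g in all 3 Normal samples and in Tumor replicates 1 and 3. Luminal epithelial markers, which summed to between 479 and 1007 FPKM in Normal and between 3206 and 4418 FPKM in Tumor, were also higher in Tumor. The part of neutrophils or of luminal cells in the S100a8 level was not tested.

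**Figure D2:**
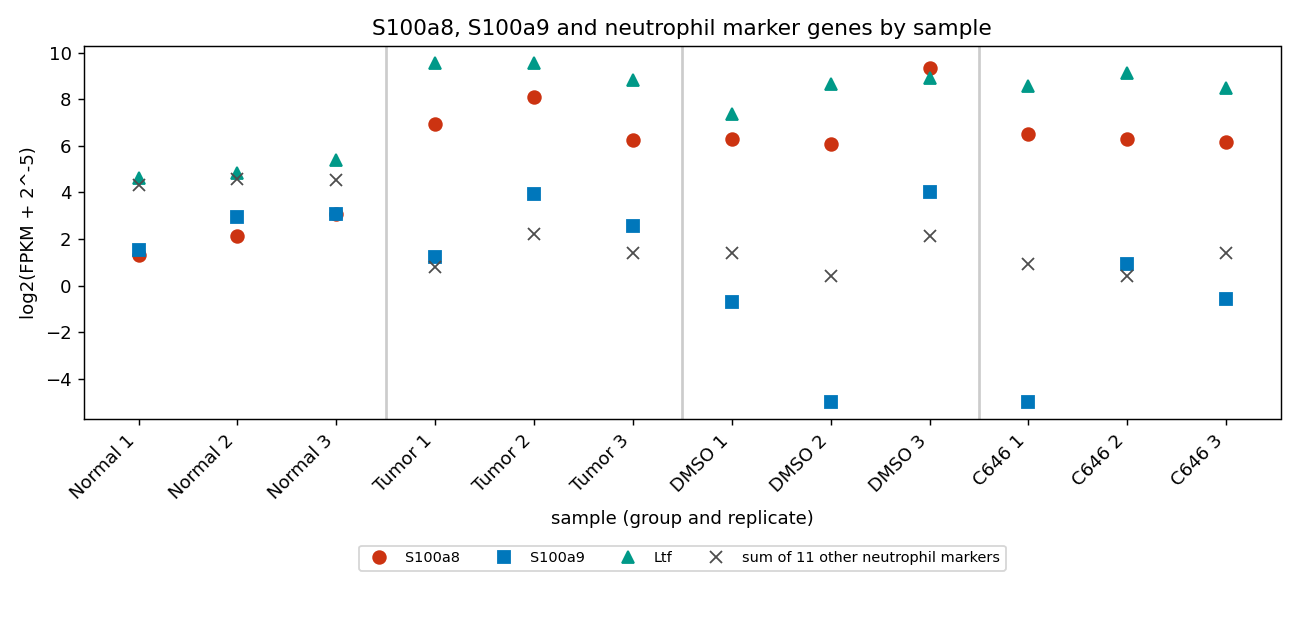
S100a8, S100a9, Ltf and the sum of 11 other neutrophil markers in each of the 12 samples, as log2(FPKM + 2^-5). S100a8 and Ltf are high in all tumors, while S100a9 and the other markers are not, and the points at the bottom are S100a9 values listed at 0.

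The promoter windows of S100a8 and S100a9 are shown because the genes lie 22596 bp apart and differed in tumors, and that of S100a11 because it was the other member called higher. RefSeq windows on GRCm38.p6, from 250 bases before to 50 after the start site, were found for 8 of 10 members, and S100a10 and S100a14 had none. Capitals mark matches, on either strand, to 4 motifs, and overlapping matches run together. The TATA box was searched as TATAAA, which 13.6% of all 32851 windows held. The AP-1 motif was searched as TGANTCA, held by 7.81% of windows. The GC box was searched as GGGCGG, held by 35.7% of windows. The C/EBP motif was searched as TTGCNNAA, held by 10.8% of windows.
S100a8, chr3:90668821-90669120, forward strand: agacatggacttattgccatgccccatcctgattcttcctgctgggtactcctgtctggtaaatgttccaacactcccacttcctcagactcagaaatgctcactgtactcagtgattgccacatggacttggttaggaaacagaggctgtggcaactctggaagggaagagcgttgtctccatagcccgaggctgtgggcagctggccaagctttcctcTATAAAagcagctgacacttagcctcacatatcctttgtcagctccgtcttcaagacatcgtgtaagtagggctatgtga
S100a9, chr3:90695672-90695971, reverse strand: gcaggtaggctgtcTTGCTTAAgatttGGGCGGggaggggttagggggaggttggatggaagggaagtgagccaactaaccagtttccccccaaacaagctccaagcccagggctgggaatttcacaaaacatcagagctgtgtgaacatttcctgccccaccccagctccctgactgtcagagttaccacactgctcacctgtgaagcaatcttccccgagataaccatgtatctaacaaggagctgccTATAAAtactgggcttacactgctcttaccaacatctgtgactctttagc
S100a11, chr3:93520246-93520545, forward strand: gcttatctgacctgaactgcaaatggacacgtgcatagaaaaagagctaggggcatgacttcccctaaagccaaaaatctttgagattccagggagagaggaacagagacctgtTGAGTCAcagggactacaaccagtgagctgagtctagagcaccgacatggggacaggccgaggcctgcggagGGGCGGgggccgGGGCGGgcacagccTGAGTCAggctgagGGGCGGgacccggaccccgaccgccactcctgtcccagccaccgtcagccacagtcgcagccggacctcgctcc
The S100a8 window held the TATA box letters at position -30 from the start site and no other match. The S100a9 window held them at position 1, the GC box at -223 and the C/EBP motif at -236. The S100a11 window held no TATA box letters, the AP-1 motif at -136 and -38 and the GC box at -64, -52 and -24, and its GC content was 61.7%, against 50% for S100a8, 51.3% for S100a9 and a median of 52.7% over all windows. The windows of S100a1 and S100a13 shared 204 bases and held none of the 4 motifs.

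Of the annexin partners, S100a11 was higher and S100a10 lower in Tumor. S100a11 had 545, 557 and 552 FPKM in Normal and 1356, 679 and 957 FPKM in Tumor, so the lowest tumor was above the highest normal sample. Its log2 fold change was 0.80 ± 0.26 (SE, limma adjusted p = 0.0323). S100a10 had 471, 457 and 440.0 FPKM in Normal and 311, 369 and 341 FPKM in Tumor, again without overlap. Its log2 fold change was -0.42 ± 0.15 (SE, limma adjusted p = 0.0389). These calls were close to the threshold. S100a11 lost its call without Normal replicate 1, 2 or 3 (limma adjusted p = 0.0839, 0.0785 and 0.0856) and without Tumor replicate 3 (0.0653), and S100a10 lost it without any 1 of the 6 samples (limma adjusted p between 0.0609 and 0.123). Both also lost it with the replicate number as a block and with no filter on low values. A processed pseudogene, S100a11-ps, is annotated on chromosome 12 between 73961142 and 73961447 and has no row in the files used here, and how reads shared with it were counted is not given, so the S100a11 level is uncertain to that extent.

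S100a6, which binds annexin A11 and the calcyclin-binding protein Cacybp, overlapped between the groups. It had 490, 513 and 307 FPKM in Normal and 645, 336 and 698 FPKM in Tumor, with a log2 fold change of 0.32 (95% interval -0.46 to 1.11, limma adjusted p = 0.43). S100a13 had 168, 265 and 192 FPKM in Normal and 200.1, 108 and 101 FPKM in Tumor. Tumor replicate 1 lay within the normal range, and the log2 fold change was -0.65 (95% interval -1.36 to 0.05, limma adjusted p = 0.0952). Without that tumor, the one nearest to Normal, it was -0.965 and passed (limma adjusted p = 0.00757). S100a13 passed in 2 of 16 alternative fits.

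S100a1, which tunes calcium handling in muscle, had 242, 371 and 320.2 FPKM in Normal and 386, 203 and 291 FPKM in Tumor. The groups overlapped, and the log2 fold change was -0.11 (95% interval -0.75 to 0.53, limma adjusted p = 0.741). The 8 skeletal muscle markers, in contrast, summed to between 41.1 and 122 FPKM in Normal and 5300, 3054 and 1891 FPKM in Tumor replicates 1 to 3, and their part in the S100a1 level was not tested. Tumor replicate 1 was the highest tumor of that group for both. Tumor replicate 2 had less S100a1 than replicate 3 and more of these markers. In DMSO replicate 1, which had the highest S100a1 of all samples at 411 FPKM, these markers summed to 2.48 FPKM.

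The epithelial members S100a14 and S100a16 had higher means in Tumor and did not pass the test. S100a16 had 100.4, 103 and 73.7 FPKM in Normal and 235, 84.7 and 206 FPKM in Tumor. Tumor replicate 2 lay within the normal range, and the log2 fold change was 0.81 (95% interval -0.08 to 1.70, limma adjusted p = 0.103). Without that tumor, the one nearest to Normal, it was 1.27 and passed (limma adjusted p = 0.00237). S100a16 passed in only this 1 of 16 alternative fits. S100a14 had 8.97, 4.93 and 1.71 FPKM in Normal and 4.11, 21.4 and 11.04 FPKM in Tumor, and its groups overlapped. Its log2 fold change was 1.22 (95% interval -0.52 to 2.96, limma adjusted p = 0.19). Of 16 alternative fits it passed in 1, without Tumor replicate 1, its lowest tumor, at 1.85 (limma adjusted p = 0.0489).

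S100b had 9.53, 21.4 and 14.2 FPKM in Normal and 7.13, 1.49 and 9.27 FPKM in Tumor. All tumors were below all normal samples, by a narrow margin. The log2 fold change was -1.61 (95% interval -3.18 to -0.05), and the limma adjusted p of 0.0706 missed the threshold. Of 16 alternative fits S100b passed in 1, without Tumor replicate 3, its highest tumor, at -2.11 (limma adjusted p = 0.0343). Among Schwann cell markers, Sox10, a factor also present in mammary epithelium, had a log2 fold change of 3.26 (limma adjusted p = 8.75e-05), and Ngfr, a neurotrophin receptor, one of -3.62 (limma adjusted p = 0.000204). Adipocyte markers summed to between 17980 and 22980 FPKM in Normal and between 103 and 1348 FPKM in Tumor. The part of either cell type in the S100b level was not tested.

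**Figure D3:**
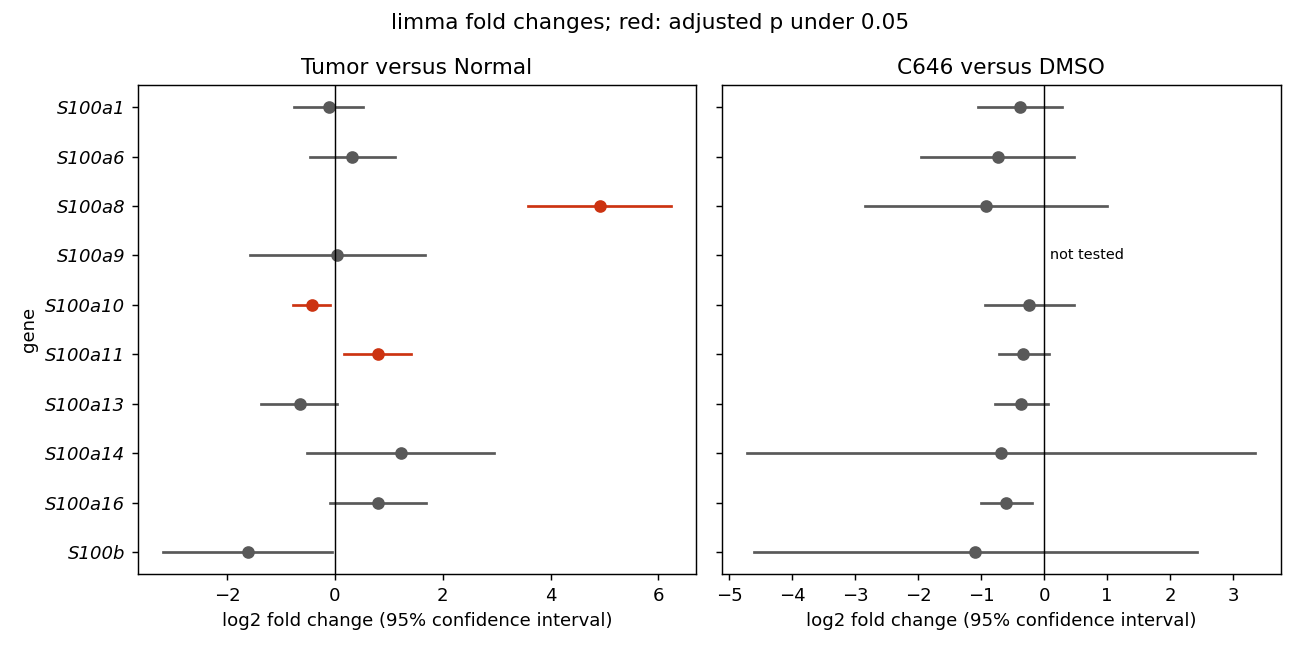
limma log2 fold change of each S100 gene with its unadjusted 95% interval, for Tumor against Normal (left) and C646 against DMSO (right); red marks an adjusted p under 0.05. S100a8 stands at 4.91, S100a11 at 0.80 and S100a10 at -0.42 on the left, and no gene is red on the right, where S100a9 was not tested.

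Of 7 other gene names that begin with S100, 3 were tested and 1 passed, where 60.5% of all genes tested did. S100a4, a member of fibroblasts and macrophages that is linked to metastasis, had 82.4, 109 and 62.3 FPKM in Normal and 21.1, 15.7 and 18.5 FPKM in Tumor. It was lower in every tumor, with a log2 fold change of -2.17 ± 0.22 (SE, limma adjusted p = 2e-04). Fibroblast markers summed to between 1454 and 1631 FPKM in Normal and between 243 and 528 FPKM in Tumor. Macrophage markers overlapped, at 500.7 to 686 FPKM in Normal and 293.4 to 559.9 FPKM in Tumor. The part of either cell type in the S100a4 level was not tested. S100a3 and S100pbp, a binding protein of the family, did not pass. S100a5, S100a7a and S100g reached 1 FPKM in fewer than 3 of these 6 samples and were not tested, and S100z was listed at 0 in all 12 samples.

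Of 17 receptors and binding partners of S100 proteins, 13 were tested, of which 2 were higher and 4 lower in Tumor. Of all genes tested 28.8% were higher and 31.7% lower, so these counts were no more than the background. Bsg, basigin, a receptor for S100A9, rose from 453 to 886 FPKM (log2 fold change 0.96, limma adjusted p = 0.00219). Anxa2, the annexin bound by S100A10, rose from 273 to 420.1 FPKM (0.63, limma adjusted p = 0.0307), the opposite direction to S100a10. Anxa1, the annexin bound by S100A11, had 155 and 192 FPKM in Normal and Tumor and did not pass, though its groups did not overlap (0.31, limma adjusted p = 0.0878). The receptors TLR4 and RAGE were lower in level than basigin, with Tlr4 at 3.19 and 4.51 FPKM and Ager, which encodes RAGE, at 2.47 and 2.85 FPKM in Normal and Tumor, and neither passed (limma adjusted p = 0.111 and 0.489). The 4 lower genes were Cd36, a fatty acid transporter abundant in adipocytes, Plat, the plasminogen activator that S100A10 binds, Anxa11 and the kinase Stk38, with log2 fold changes of -6.97, -2.96, -1.78 and -0.43 (limma adjusted p = 7.99e-05, 0.000175, 0.00131 and 0.0147).

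The second comparison asked whether C646 changed S100 expression in tumors. No member was called higher or lower by limma among the 9 tested, where 0% of 12083 genes were called in all. At an unadjusted p under 0.05 there were 384 genes, of which S100a16 was the only member. The median log2 fold change of the 9 members was -0.60, against -0.02 over all genes tested. All 9 estimates were below 0, where 46.9% of all genes tested were above 0. For 2 members every C646 tumor was below every DMSO tumor, and none was above, where 4.52% and 4.04% of all genes did so, 8.56% together. Much of this rested on DMSO replicate 3, without which the median of the members was -0.20. The estimates of S100a8, S100a10 and S100a14 were then above 0.

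The 2 members without overlap were S100a16 and S100a11. S100a16 had 184, 162 and 233 FPKM in DMSO and 138, 111 and 130.1 FPKM in C646. Its log2 fold change was -0.60 (95% interval -1.01 to -0.19, limma adjusted p = 0.99). S100a11 had 923, 691 and 758 FPKM in DMSO and 677, 611 and 593 FPKM in C646, with a log2 fold change of -0.33 (95% interval -0.72 to 0.07, limma adjusted p = 0.99). Neither estimate changed direction when any 1 sample was left out, with ranges of -0.72 to -0.45 for S100a16 and -0.42 to -0.21 for S100a11. Of the 13 partners tested, Anxa1, Anxa2 and Sugt1 had every C646 value below every DMSO value (log2 fold changes -0.29, -0.51 and -0.23), and Cd36 and Stk38 had every one above (1.57 and 0.15, limma adjusted p = 0.99 for each). Over all genes tested, 4.52% were below and 4.04% above in this way.

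The other members overlapped between DMSO and C646. S100a13 had 42.2, 54.5 and 66.7 FPKM in DMSO and 40.9, 40.5 and 43.7 FPKM in C646 (log2 fold change -0.36, 95% interval -0.78 to 0.06). S100a1 had 411, 218 and 209 FPKM in DMSO and 217, 169 and 229 FPKM in C646 (-0.38, 95% interval -1.05 to 0.28). Without DMSO replicate 1 the S100a1 value was -0.07, and without DMSO replicate 3 the S100a13 value was -0.20. The intervals of both include changes of either sign. S100a9 was over 1 FPKM in only 2 of the 6 samples, DMSO replicate 3 at 16.2 and C646 replicate 2 at 1.89 FPKM, and was not tested.

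DMSO replicate 3 decided the values of 4 members. S100a8 had 79.4, 67.8 and 654 FPKM in DMSO replicates 1 to 3 and 92.1, 78.1 and 71.9 FPKM in C646. The third DMSO tumor was 8.88-fold above the mean of the other 2, and these lay within or below the C646 range. S100a6 had 243, 291 and 1038 FPKM in DMSO and 267, 230.4 and 258 FPKM in C646. S100a14 had 0.843, 2.16 and 117 FPKM in DMSO and 2.61, 8.003 and 2.54 FPKM in C646, and the same tumor was 77.7-fold above the mean of the other 2. S100a10 had 189, 150.3 and 351 FPKM in DMSO, against 184, 181 and 183 FPKM in C646.

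With all samples, the log2 fold changes of these genes were -0.92 for S100a8, -0.74 for S100a6, -0.68 for S100a14 and -0.24 for S100a10. Without DMSO replicate 3 they were 0.13, -0.08, 1.45 and 0.115. The 95% interval with all samples ran from -2.84 to 1.00 for S100a8 and from -4.71 to 3.35 for S100a14, so a large fall of S100a8 and a large change of S100a14 in either direction are not excluded. S100a3 and S100a7a, outside the 10 members, were also highest in this library, while S100g and S100a5 were not. S100g was tested between C646 and DMSO and was not called (log2 fold change 0.94, 95% interval -3.41 to 5.29, limma adjusted p = 0.99). S100a3, a hair and epidermis member, had 50.4 FPKM in DMSO replicate 3 and at most 8.25 FPKM in any other sample. S100a7a, the mouse relative of psoriasin, had 11.5 FPKM there and at most 0.912 FPKM elsewhere. Krt5 and Krt17, keratins of basal epithelium, stood at 229 and 92.2 FPKM in this sample, against at most 79.4 and 28.6 FPKM in the other 11, and their part in the S100 levels was not tested.

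S100b was set apart by other libraries. It had 92.2, 7.02 and 2.58 FPKM in DMSO and 24.6, 5.12 and 1.34 FPKM in C646. DMSO replicate 1 was 19.2-fold above the mean of the other 2, and C646 replicate 1 was 7.62-fold above its group's others. The log2 fold change of -1.09 (95% interval -4.61 to 2.42) became 0.38 without DMSO replicate 1. Of 4 Schwann cell markers tested in these tumors none was called, and Sox10 was higher in every C646 tumor than in every DMSO tumor (log2 fold change 0.42, limma adjusted p = 0.99). Dip2a, on the opposite strand, stood between 5.77 and 8.33 FPKM, above S100b in DMSO replicate 3 and C646 replicates 2 and 3, and reads of the shared stretch cannot be told apart.

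**Figure D4:**
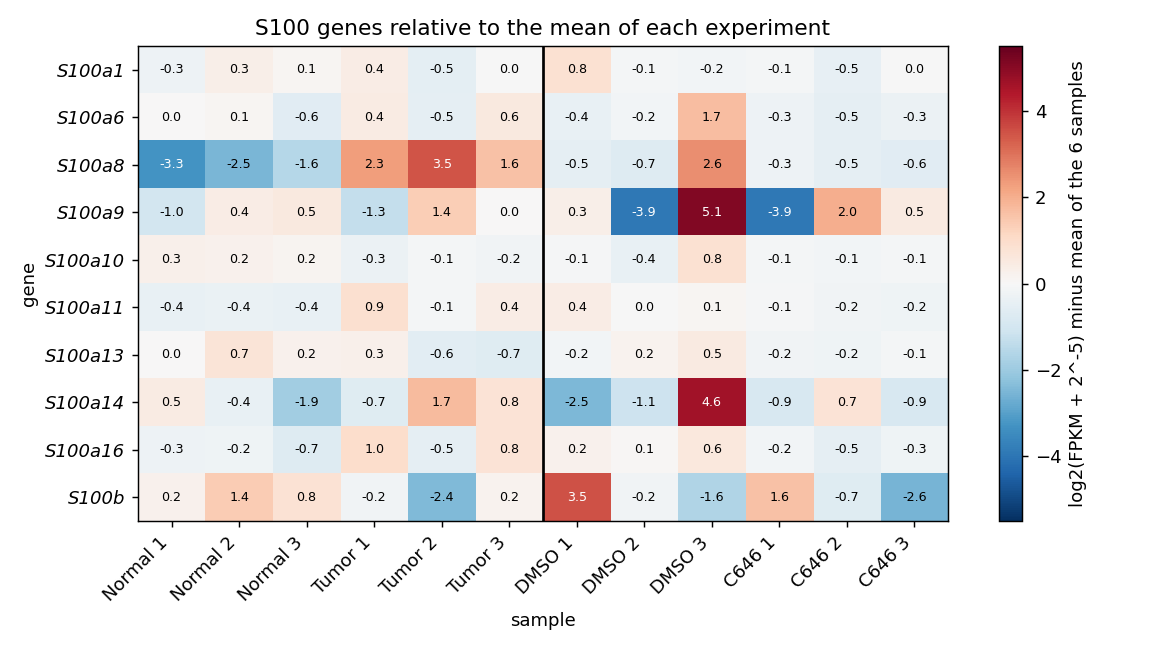
Each S100 gene in each sample as log2(FPKM + 2^-5) minus its mean over the 6 samples of the same experiment (Normal and Tumor left of the line, DMSO and C646 right of it). The S100a8 row runs from -3.30 to -1.56 in Normal and from 1.62 to 3.47 in Tumor, and the DMSO replicate 3 column holds the highest values of the right side for S100a6, S100a8, S100a9, S100a10, S100a13, S100a14 and S100a16.

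The untreated and injected tumors came in tables with different sets of rows, so their levels are set side by side without a test. The untreated tumors were thoracic, while the paper took the biggest tumors of the injected mice. S100a13 was the member whose ranges did not overlap, at 101 to 200.1 FPKM in the 3 untreated tumors and 40.5 to 66.7 FPKM in the 6 injected ones. The share of all genes without overlap was not counted, so this is not shown to be particular to S100a13. S100a10 had 311 to 369 FPKM in untreated tumors and a median of 184 FPKM in injected ones, where DMSO replicate 3, at 351 FPKM, was within the untreated range. S100a8 overlapped, with 76.4 to 275 FPKM in untreated tumors and a median of 78.7 FPKM, from 67.8 to 654, in injected ones. The highest S100b of all tumors, 92.2 FPKM, and the lowest, 1.34 FPKM, were both in injected mice.

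The genes with the profile most like each member were found over the 12 samples, among 13222 other genes, by the root mean square difference of log2 levels centred within each experiment. For S100a8, whose own root mean square deviation was 1.99, they were Slc30a2, a zinc transporter of the secretory pathway, at 0.784, Card14 at 0.788 and Padi4 at 0.841. For S100a9, with 2.35, they were Tnnt1 at 1.30, Hist1h4n at 1.54 and Ltb4r1 at 1.56. Each of these was listed at 0 in DMSO replicate 2 and C646 replicate 1, as S100a9 was, so the matches rest in part on shared values of 0. The closest for the others were Glmp at 0.101 for S100a11, Macrod1 at 0.109 for S100a13, a row joining Csrp2bp and Pet117 at 0.142 for S100a10, Plcd1 at 0.16 for S100a1, Lif at 0.219 for S100a16, Pdlim4 at 0.338 for S100a6, Aif1l at 0.617 for S100b and Padi3 at 0.709 for S100a14. The own deviations of these members were 0.379, 0.396, 0.315, 0.363, 0.511, 0.62, 1.66 and 1.79 in the same order. Slc30a2 had 0.385, 0.105 and 0.214 FPKM in Normal and 8.40, 25.3 and 7.70 FPKM in Tumor. In DMSO it was highest in replicate 3, at 18.4 FPKM, as S100a8 was. Slc30a2 was picked for its likeness to S100a8 over these same samples, so these values describe the match and add no separate evidence.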

How the data were processed

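RNA-seq of poly-A RNA was analysed in 12 samples, 3 per group. Per the labels and the methods, the authors mapped reads to mm10 with TopHat2 2.1.1, and the deposited FPKM per gene came from Cufflinks 2.2.1. The annotation is not given in the sources used here. The methods give 1 planned depth for all libraries, and the files carry no read totals per sample. Ratios of low values gave a rough relative depth where many shared 1 ratio, the clearest being C646 replicate 3 at 0.758 times the depth of replicate 2, shared by 53.7% of values. Rows without a name, 1837 in the Normal and Tumor files and up to 4.56% of their FPKM, were dropped, and repeated names were summed.

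The two-sided moderated test of limma 3.58.1 (R 4.3.3, variance trend on) compared groups on log2(FPKM + 2^-5). A gene entered if 3 or more of the 6 samples reached 1 FPKM, and p-values were adjusted over all such genes by Benjamini-Hochberg, and called below 0.05. On this log2 scale the fold changes of low genes come out too small. The code was tested on simulated data. Members, marker lists, partner list and the rule for like genes were chosen with earlier results of these data known. Named genes were the members, these lists and the most like genes. Gene positions came from GENCODE vM21, promoters from RefSeq. Python 3.11.15, numpy 2.4.6, pandas 2.3.3 and matplotlib 3.10.9 did the rest.

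Alternatives were pseudocounts of 1 and 0.25, no filter, a filter on the mean, median-ratio and quantile scaling, the largest of repeated rows, joined rows, no variance trend, the replicate number as a block, and each sample left out.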

Additional observations from a re-analysis of the deposited data

How the results depend on the processing

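S100a8 kept its call against Normal in all 16 alternative fits. With no filter on low values, and with the replicate number as a block, 1 member was higher and 0 lower in Tumor, and quantile normalization, which moved the median of all genes from -0.02 to 0.12 on the log2 scale, gave 2 lower members, the added one being S100a13 (limma adjusted p = 0.00792). With 1 sample left out, between 1 and 3 members were higher and between 0 and 1 lower. For C646 against DMSO, no member was called in any fit. Over all genes, no filter gave 15 calls where the main setting gave 0, and leaving out 1 sample gave between 0 and 12, the 12 coming without DMSO replicate 2. S100a9, not tested there in the main setting, had a log2 fold change of -0.97 with no filter or a filter on the mean (limma adjusted p = 1 and 0.99). No joined or repeated rows exist for the members, so those settings left their levels as they were.

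Estimates that changed direction with 1 sample left out had not passed the test. Against Normal they were S100a1, between -0.335 and 0.13, with 0.027 without Normal replicate 2, and S100a9, between -0.615 and 0.723, with -0.432 without Normal replicate 1. Against DMSO they were S100a8, between -1.505 and 0.13, S100a10, between -0.496 and 0.115, and S100a14, between -2.077 and 1.453, each highest without DMSO replicate 3, and S100b, between -2.191 and 0.382. The replicate numbers mark no shared animal, and samples of 1 number departed from their group means with correlations of -0.084 to 0.025 for Tumor and Normal and of 0.056 to 0.123 for C646 and DMSO, so the block shares only a number. The cause of these changes was not tested. With 3 samples a group and no read totals per sample in the files, S100a9 near 0 FPKM in injected tumors is not measured well.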

Other observations

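DMSO replicate 3, the tumor with the highest S100a8, S100a14, S100a3 and S100a7a, also held transcripts of stratified, keratinizing epithelium. These genes were chosen after their values were seen. Krt1 and Krt10, the keratins of upper epidermis, had 45.4 and 58.6 FPKM in it, against at most 1.68 and 4.71 FPKM in the other 8 tumors, while in Normal the highest values were 4.33 and 18.4 FPKM. Krt6a, a keratin of activated keratinocytes, had 30.0 FPKM against at most 2.98 FPKM in the other 11 samples. Krtdap, a keratinocyte differentiation gene, had 59.0 FPKM against at most 5.62 FPKM, and Sprr1b, a cornified envelope gene, had 13.7 FPKM against at most 0.848 FPKM. The 8 luminal epithelial markers summed to 3939 FPKM in it, within the range of 2884 to 4418 FPKM over the 9 tumors. Their part in the S100 levels was not tested.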
